A study of Mus musculus with 40 samples.

Results

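The proteasome subunits and assembly factors were followed as 1 set of genes in the mammary glands of ovariectomised Balb/cJ mice that were fed conjugated linoleic acid (CLA) or given estrogen. The set was chosen by gene symbol: a symbol that starts with Psm and a letter from a to g, then a number, and that had at least 10 counts summed over the 40 libraries. Among the 47729 gene symbols counted, 49 matched the pattern, and 48 of these were members. The symbol left out, Psme2b, a near copy of Psme2, had no count in any library. Of the 48 members, 47 had enough counts to be tested, and the one not tested was Psmb11.

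All mice had been ovariectomised at 21 days of age and had recovered for 7 days, so that treatment began at 28 days with the ovarian source of estrogen removed in every group, the controls included. CLA mice ate an AIN 93G-based diet with CLA, which the labels give as 2.7% fat as CLA, and their glands were taken after 108 h or 132 h. Estrogen mice ate the control diet, drank water with 200 nM estrogen, and were killed after 60 h or 84 h. Control mice ate the AIN 93G-based diet alone, with a group of their own at each of the 4 times. Each of the 8 groups had 5 libraries, each with its own animal number in the labels. Each library was made from polyadenylated RNA of a single inguinal gland, cut between the teat and the lymph node, with the node taken out, and so holds fat, vessels, immune cells and stroma beside the epithelium.

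The proteasome is the protease complex that degrades proteins tagged with ubiquitin. Its barrel-shaped core is built from rings of alpha and beta subunits, of which Psmb5, Psmb6 and Psmb7 carry the chymotrypsin-like, caspase-like and trypsin-like active sites, and in immune cells or under interferon Psmb8, Psmb9 and Psmb10 take their places to form the immunoproteasome. A regulatory particle, made of a base with AAA ATPases and a lid, binds ubiquitin chains, removes them and feeds the substrate into the core. Dedicated chaperones help to assemble the core and the base. In many cell types, loss of proteasome activity is followed by a joint rise of the subunit genes through the transcription factor Nfe2l1 (NRF1), which acts at antioxidant response elements.

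Psmb5, Psmb6 and Psmb4 were among the subunits with the largest changes under CLA, and Psmb8 is an immunoproteasome subunit whose change was smaller. The promoters of these 4 members are shown as examples. Each runs from 250 bases before to 50 bases after the gene's RefSeq start, 5′ to 3′ on the gene's strand, on GRCm38.p6. The windows are chr14:54617946-54618245 on the minus strand for Psmb5, chr11:70525107-70525406 on the plus strand for Psmb6, chr3:94886909-94887208 on the minus strand for Psmb4 and chr17:34197945-34198244 on the plus strand for Psmb8. Capitals mark matches, on either strand, to the antioxidant response element core TGANNNNGC, the Ets core CCGGAA, the interferon response element core GAAANNGAA and the gamma-activated sequence TTCNNNGAA, with overlapping matches joined.
Psmb5: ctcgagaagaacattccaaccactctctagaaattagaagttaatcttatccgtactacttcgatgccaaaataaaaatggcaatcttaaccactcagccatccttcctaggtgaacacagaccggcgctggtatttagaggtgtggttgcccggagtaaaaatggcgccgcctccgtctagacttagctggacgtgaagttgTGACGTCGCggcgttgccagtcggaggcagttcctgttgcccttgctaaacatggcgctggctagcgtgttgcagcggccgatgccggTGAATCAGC
Psmb6: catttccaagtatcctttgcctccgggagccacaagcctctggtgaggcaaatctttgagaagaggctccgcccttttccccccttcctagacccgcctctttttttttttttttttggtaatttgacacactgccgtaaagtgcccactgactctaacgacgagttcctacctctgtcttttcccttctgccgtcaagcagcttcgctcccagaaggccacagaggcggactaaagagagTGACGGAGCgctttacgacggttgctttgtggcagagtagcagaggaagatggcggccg
Psmb4: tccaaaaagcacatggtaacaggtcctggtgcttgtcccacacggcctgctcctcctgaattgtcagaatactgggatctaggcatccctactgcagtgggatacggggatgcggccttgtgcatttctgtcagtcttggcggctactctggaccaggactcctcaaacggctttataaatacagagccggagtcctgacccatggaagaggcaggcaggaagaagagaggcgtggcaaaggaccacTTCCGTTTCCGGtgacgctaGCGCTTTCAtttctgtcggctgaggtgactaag
Psmb8: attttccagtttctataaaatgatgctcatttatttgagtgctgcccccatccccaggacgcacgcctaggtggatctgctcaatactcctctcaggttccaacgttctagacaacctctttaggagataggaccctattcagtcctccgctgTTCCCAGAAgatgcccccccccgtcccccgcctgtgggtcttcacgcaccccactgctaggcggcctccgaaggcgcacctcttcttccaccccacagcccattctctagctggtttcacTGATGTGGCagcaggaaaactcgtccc
The searched pattern TGANNNNGC leaves its N positions free, so a match is a loose form of the antioxidant response element core. Matches stood in all 4 windows: TGACGTCGC at -47 and TGAATCAGC at 41 from the start in Psmb5, and TGACGGAGC at -9 in Psmb6. Psmb4 held TGAAAGCGC at 17 and Psmb8 held TGATGTGGC at 23. Over the 40 members with a promoter in the table, 23 (57.5%) held such a match, against 45.0% of all 27025 genes with a promoter. The Ets core stood in 20 of the 40 members (50.0%), against 16.7% of all genes and 20.9% of the 17491 protein-coding ones. The interferon response element core stood in 17.5% of the members and 9.76% of all genes, the gamma-activated sequence in 7.5% and 9.55%, and the AP-1 or Maf core TGACTCA in 2.5% and 5.95%. The CCAAT box stood in 35.0% of the members and 41.1% of all genes, and the heat shock element pair GAANNTTC in 7.5% and 9.04%. With only the bases before the start, the antioxidant response element core stood in 40.0% of the members and 38.7% of all genes, the interferon response element core in 7.5% and 8.18%, and the Ets core in 42.5% and 13.6%, so that of these 3 the Ets core alone kept a clearly larger share in the members. These are matches of letters in a fixed window and do not show that a factor bound there.

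Library totals ran between 18183713 and 40026800 counts, and values per library are given below as CPM (counts scaled to a common library size) after TMM scaling. The adipocyte list and the luminal epithelium list were expressed in every group. The luminal mean differed widely between single glands, from -0.084 log2 CPM in control 3 at 60 h to 4.97 in estrogen gland 3 at 84 h. Skin and hair keratin genes were high in 10 libraries that are control or estrogen glands (3 controls at 108 h, 3 controls at 132 h, 1 estrogen gland at 60 h and 3 estrogen glands at 84 h), and in no CLA gland. Fits without these 10 libraries keep fewer controls at 108 h and 132 h and fewer estrogen glands, and so have less power. Members overlapped with other genes in some places: 11 of the 48 share bases with a protein-coding gene in GENCODE M21, among them Psmb9 with Tap1, and 18 overlap a gene on the other strand, and the strand setting of the count is not given in the sources used here.

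In the control glands every member of the common core and the regulatory particle was expressed, and the forms of other tissues were nearly absent. Per transcript length (RPKM, mean ± SD of the 20 control libraries, which come from 2 separately made tables), Psmb1 was highest at 67.3 ± 3.87, followed by Psma2 at 53.5 ± 3.51, Psmc1 at 53.0 ± 2.68, Psmb4 at 51.6 ± 3.29 and Psma6 at 50.6 ± 2.29, 4 levels that lie within their SDs of each other. The active-site subunits Psmb5 and Psmb6 had nearly the same level, 33.0 ± 2.96 and 32.9 ± 1.77, and Psmb7 had 18.1 ± 0.903. Of their immunoproteasome counterparts, Psmb10 stood at 19.1 ± 3.23, Psmb8 at 11.6 ± 1.93 and Psmb9 at 4.08 ± 0.589. The activators Psme2 (38.6 ± 2.38) and Psme1 (30.2 ± 2.37) lay among the core subunits. Chaperones were lower, with medians of 8.71 RPKM over the 4 core chaperones and 4.35 RPKM over the 3 base chaperones, against 25.4 RPKM over the 7 alpha subunits of the common core. Psma8, the testis form of an alpha subunit, was at 0.163 ± 0.0959 RPKM, and Psmb11, the thymus form of Psmb5, at 0.0034 ± 0.0063 RPKM with 23 counts in all 40 libraries.

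**Figure D1:**
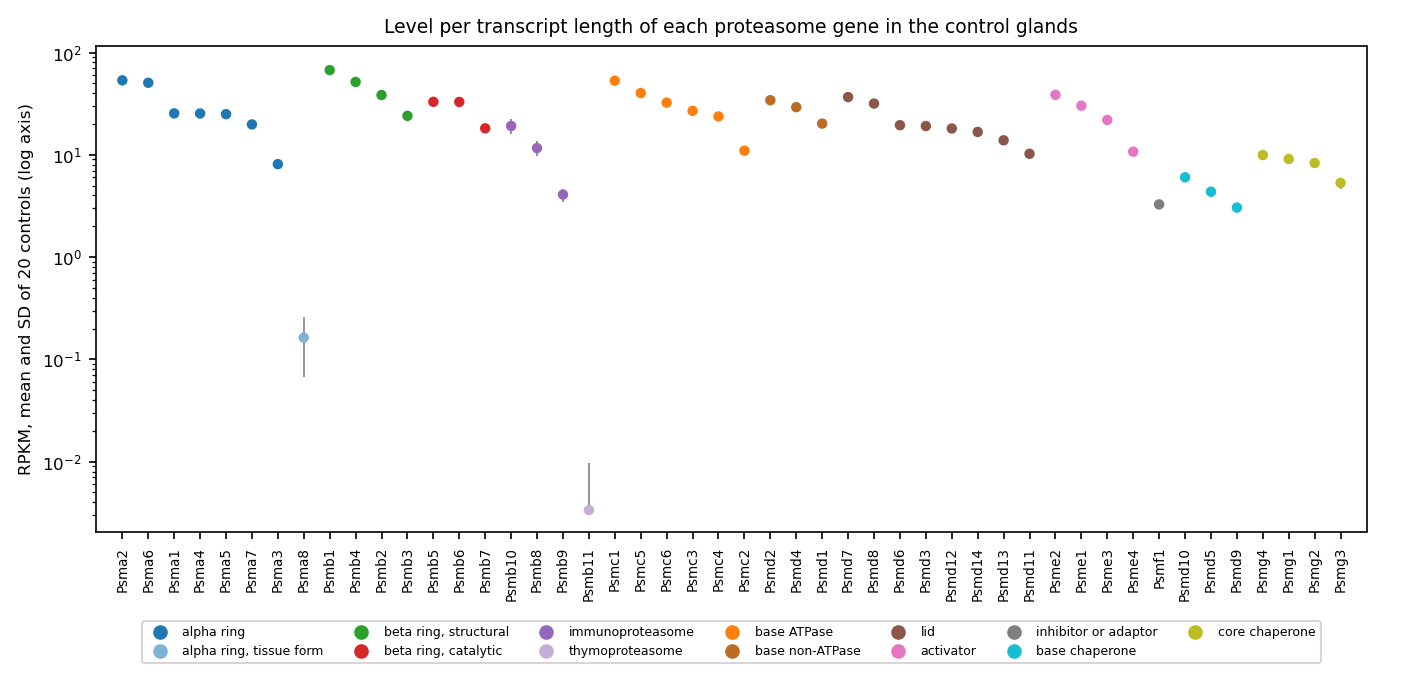
RPKM of each of the 48 members in the 20 control libraries (log axis), points for the mean and bars for the SD, grouped by place in the complex. Apart from Psma8 at 0.163 and Psmb11 at 0.0034, all members lay between 3.05 (Psmd9) and 67.3 (Psmb1).

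Over the 4 control groups the members stayed close to level. Of 47 tested, 2 differed across 60, 84, 108 and 132 h (edgeR quasi-likelihood test, Benjamini-Hochberg adjusted p of 0.018 for both Psmd4 and Psmd8), against 13.4% of all genes tested. Set against 60 h, the log2 changes of Psmd4, the Rpn10 ubiquitin receptor, were 0.12 at 84 h, -0.051 at 108 h and 0.15 at 132 h. Those of Psmd8, the Rpn12 lid subunit, were 0.030, -0.20 and 0.018. Time and age go together in this comparison and cannot be told apart. The controls at 60 h and 108 h share a count table, and those at 84 h and 132 h share the other. Psmd4 was higher at 84 h and 132 h than at 60 h and 108 h, a split that follows the table. Psmd8 was lowest at 108 h, in the same table as 60 h. Between times of different tables, time and table cannot be told apart, and the part of the table was not tested.

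In CLA glands nearly the whole complex was higher than in control glands of the same time. At 108 h 42 of the 47 tested members rose and none fell (edgeR quasi-likelihood test, adjusted p under 0.05 over all 17248 genes tested), where 24.9% of all genes rose and 47.9% changed in either direction. At an unadjusted p under 0.05 there were 43 of the 47 members, against 54.1% of all genes. The median log2 fold change was 0.43 over the members and -0.013 over all genes. At 132 h 37 of 47 rose and none fell, where 27.0% of all genes rose, 29.0% fell and 56.0% changed in all. The medians there were 0.31 over the members and -0.029 over all genes. An unadjusted p under 0.05 was seen for 39 of the 47 members, against 60.6% of all genes. Per library, all 5 CLA glands lay above all 5 controls for 39 of the 47 members at 108 h (17.6% of all genes did so). At 132 h they did for 30 of the 47 (20.2% of all genes). The members that rose did so by 1.12 to 1.80-fold at 108 h and 1.17 to 1.98-fold at 132 h. In whole-gland RNA, more cells of a type and more RNA per cell cannot be told apart.

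Of the 47 members, 35 rose at both times, in different mice set against different controls. A further 7 passed the test at 108 h and not at 132 h, and 2 at 132 h and not at 108 h. With 42 and 37 of the 47 called at the 2 times, a large overlap had to follow from these counts alone. Across the 47 members the log2 changes at the 2 times had a Pearson r of 0.83 and a Spearman rho of 0.87, as a description across genes of the same complex, which are not independent. The change was smaller at 132 h for 44 of the 47 by edgeR. In the test of the difference between the 2 times no member and no gene in all passed (0.0% of 17852 by edgeR). The median of this difference over the members was -0.093 by edgeR and -0.011 in RPKM (limma, pseudocount of 0.1). For that difference 6 of the 47 members had an unadjusted p under 0.05, against 12.4% of all genes, and DESeq2 called 0 members.

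**Figure D2:**
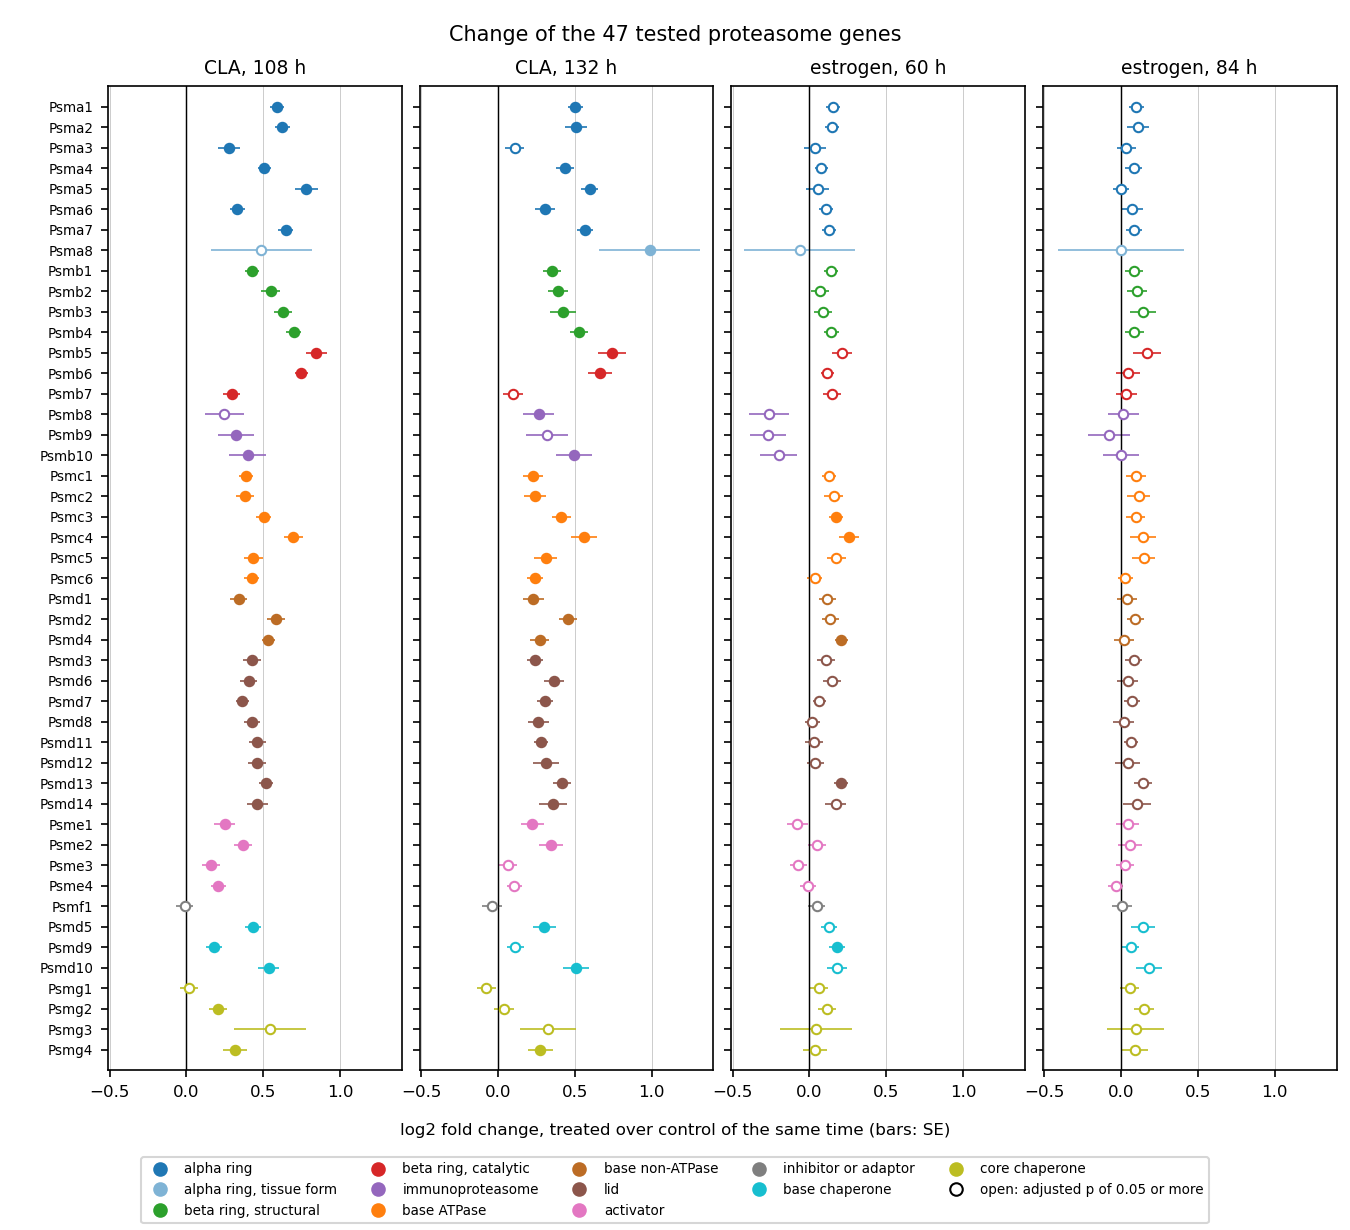
Log2 fold change of the 47 tested members (rows, coloured by place in the complex) in treated over control glands of the same time, with SE bars; filled points passed an adjusted p of 0.05. Under CLA 42 members at 108 h and 37 at 132 h are filled, all right of 0, against 5 under estrogen at 60 h and none at 84 h.

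The active sites of the common core showed the widest spread within 1 class. Psmb5, the chymotrypsin-like subunit, had 30.4, 34.0, 32.6, 33.1 and 37.4 CPM in the CLA glands at 108 h, against 18.5, 20.2, 17.8, 18.02 and 18.6 CPM in the controls. At 132 h it had 36.4, 28.9, 30.8, 31.1 and 37.9 CPM in CLA glands, against 18.6, 17.0, 21.8, 22.7 and 17.9 CPM in controls. Every CLA gland was above every control at both times, and the log2 fold changes were 0.85 ± 0.07 (SE, n = 5 each, edgeR adjusted p = 9.73e-09) and 0.74 ± 0.09 (edgeR adjusted p = 8.16e-07). This was the largest log2 change among the subunits of the common core at both times. Psmb6, the caspase-like subunit, had 130, 138, 137, 125 and 129 CPM in CLA glands at 108 h and 79.1, 78.6, 74.8, 78.9 and 79.7 CPM in controls. Its log2 fold changes were 0.75 ± 0.04 at 108 h and 0.66 ± 0.08 at 132 h, again with no overlap.

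Psmb7, the trypsin-like subunit, gave smaller log2 changes at both times. It had 69.5, 75.8, 79.7, 69.1 and 70.9 CPM in CLA glands at 108 h, against 61.4, 58.3, 60.9, 57.3 and 59.5 CPM in controls, a log2 fold change of 0.29 ± 0.06 (edgeR adjusted p = 0.00027) with no overlap. At 132 h it averaged 70.2 ± 5.88 CPM in CLA glands and 65.0 ± 4.56 CPM in controls (SD, n = 5 each), with a log2 fold change of 0.098 ± 0.068 that did not pass (edgeR adjusted p = 0.23). In RPKM the same change did pass (0.21, limma adjusted p = 0.0048). Psmb7 shares bases with the coding gene Nek6 in the annotation. RPKM in the files was not a fixed multiple of CPM for a gene: over 40 libraries the SD of log2(RPKM/CPM) had a median of 0.032 over 46 members.

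**Figure D3:**
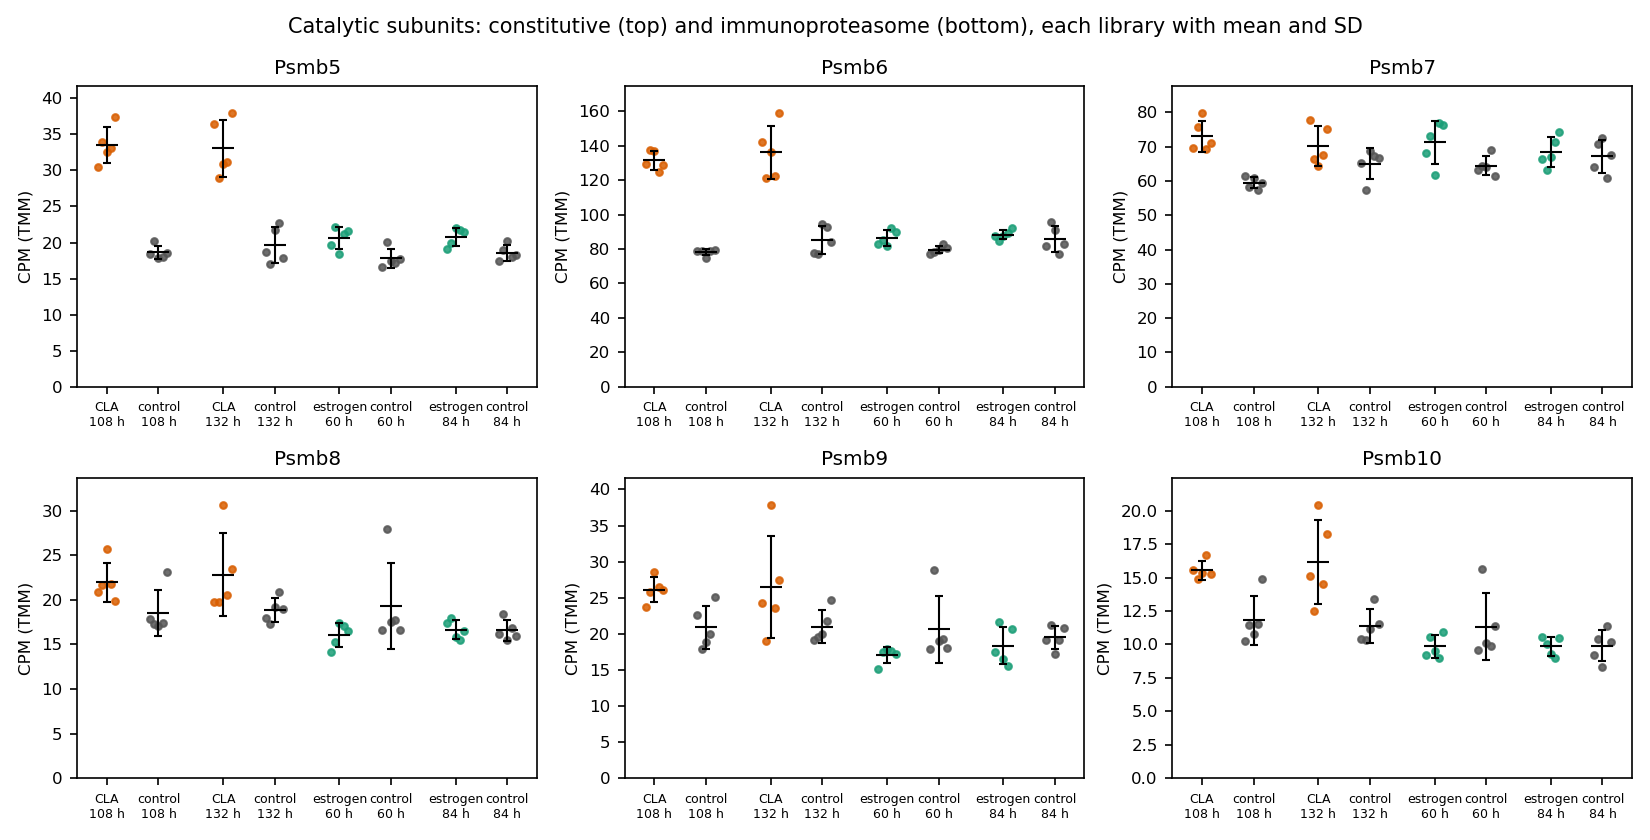
CPM of the 3 active-site subunits of the common core (top) and the 3 immunoproteasome subunits (bottom) in each library, treated group left of its control, with mean and SD. Psmb5 and Psmb6 separate CLA from control glands at both times, while Psmb8, Psmb9 and Psmb10 overlap with their controls and each has 1 high control library at 60 h.

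The other beta subunits of the core, which carry no active site, all rose at both times. Psmb4 had 150, 160, 155, 147 and 159 CPM in CLA glands at 108 h and 93.3, 103, 90.7, 91.6 and 96.3 CPM in controls. Its log2 fold changes were 0.70 ± 0.05 at 108 h and 0.53 ± 0.06 at 132 h, and the range over Psmb1 to Psmb4 was 0.43 to 0.70 at 108 h and 0.35 to 0.53 at 132 h. Of the 7 alpha subunits of the common core, 7 rose at 108 h and 6 at 132 h, with medians of 0.59 and 0.50. Psma7 led by p at 108 h (log2 fold change 0.65 ± 0.05, edgeR adjusted p = 5.39e-09) and Psma5 at 132 h (0.60 ± 0.05, edgeR adjusted p = 1.96e-08). Psma5 had 30.6, 33.6, 31.5, 31.2 and 33.7 CPM in CLA glands at 108 h, against 17.5, 19.3, 17.1, 19.0 and 20.6 CPM in controls, which do not overlap. The alpha subunit that did not pass at 132 h was Psma3 (0.11 ± 0.06). Psma8, at 19 to 43 counts per CLA gland at 132 h and 7 to 22 per control, had a log2 fold change of 0.99 ± 0.33 (edgeR adjusted p = 0.015) with overlapping groups, and the call was lost without the libraries high in skin and hair genes (0.54, edgeR adjusted p = 0.30).

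The regulatory particle rose as a whole. All 6 ATPases, all 3 non-ATPase base subunits and all 8 lid subunits passed at both times, and the groups did not overlap for any of the 17 at 108 h and for 16 of them at 132 h, Psmd4 being the exception. The ATPase Psmc4 had 108, 115, 125, 98.8 and 106 CPM in CLA glands at 108 h and 64.2, 74.4, 67.7, 65.8 and 68.2 CPM in controls. Its log2 fold change was 0.70 ± 0.06 at 108 h and 0.56 ± 0.08 at 132 h, the largest of the 6, whose medians were 0.43 and 0.28. Psmd2, the Rpn1 scaffold, rose by 0.58 ± 0.06 and 0.46 ± 0.06 on the log2 scale. Psmd14, the Rpn11 deubiquitinase of the lid, had 98.0, 93.6, 110, 90.4 and 94.8 CPM in CLA glands at 108 h, against 69.5, 72.5, 73.0, 65.7 and 72.8 CPM in controls, with log2 fold changes of 0.46 ± 0.07 and 0.36 ± 0.09. Psmd13 (Rpn9) led the lid by p at both times, at 0.52 ± 0.05 and 0.42 ± 0.06.

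Psmd4, which showed the overlap at 132 h, had 151, 156, 159, 146 and 158 CPM in CLA glands at 108 h and 102, 110, 101, 108 and 111 CPM in controls. Its log2 fold change was 0.53 ± 0.04 at 108 h (edgeR adjusted p = 8.29e-09) and 0.27 ± 0.06 at 132 h (edgeR adjusted p = 0.0014). The difference between these 2 changes was -0.25 ± 0.07 and did not pass (edgeR adjusted p = 0.15), and 2 libraries alone, CLA gland 2 (135.5 CPM) and control gland 4 (138.8 CPM), overlapped at 132 h. Without the libraries high in skin and hair genes, the change at 132 h did not pass (0.17, edgeR adjusted p = 0.12).

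The immunoproteasome subunits gave log2 changes between 0.25 and 0.50, with groups that overlapped in CPM at both times. The changes of Psmb8 and Psmb9 were smaller than those of Psmb5 and Psmb6, and those of Psmb10 were larger than those of Psmb7. Psmb8 had 20.9, 21.6, 25.7, 21.8 and 19.9 CPM in CLA glands at 108 h, against 17.9, 17.3, 17.1, 17.4 and 23.1 CPM in controls, a log2 fold change of 0.25 ± 0.13 that did not pass (edgeR adjusted p = 0.12). At 132 h it had 19.8, 19.7, 30.6, 20.5 and 23.5 CPM in CLA glands and 17.98, 17.3, 19.2, 20.8 and 19.0 CPM in controls, a log2 fold change of 0.27 ± 0.10 (edgeR adjusted p = 0.031). Both results turned on 1 library each: without control 5 the change at 108 h passed (0.33, edgeR adjusted p = 0.042), and without CLA gland 3 the change at 132 h did not (0.14, edgeR adjusted p = 0.13). The call at 132 h was also lost without control 1, control 2 or CLA gland 5, with adjusted p between 0.057 and 0.075, with only its own 2 groups in the fit (0.11), with upper-quartile scaling (0.21, edgeR adjusted p = 0.077), and without the libraries high in skin and hair genes (0.19, edgeR adjusted p = 0.35). In RPKM the change at 108 h passed (0.43, limma adjusted p = 0.0053).

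Psmb9 gave a log2 fold change of 0.32 ± 0.12 at 108 h (edgeR adjusted p = 0.028) and 0.32 ± 0.14 at 132 h (edgeR adjusted p = 0.057), with 23.7 to 28.6 CPM in CLA glands and 17.9 to 25.1 CPM in controls at 108 h. The call at 108 h was lost without CLA gland 3 or any of controls 2, 3 and 4 (adjusted p between 0.058 and 0.075), and with upper-quartile scaling (0.25, edgeR adjusted p = 0.069). At 132 h a call appeared without CLA gland 2, CLA gland 4 or control 5 (adjusted p between 0.011 and 0.048), and in RPKM (0.44, limma adjusted p = 0.010). Psmb9 (chr17:34181987-34187764, minus strand, GRCm38) shares bases with Tap1, a peptide transporter gene, and lies near Psmb8 (chr17:34197721-34201454, plus strand). Psmb10 rose at both times, by 0.40 ± 0.12 (edgeR adjusted p = 0.011) and 0.50 ± 0.12 (edgeR adjusted p = 0.0014), and without the libraries high in skin and hair genes the change at 132 h did not pass (0.36, edgeR adjusted p = 0.12). It had 15.6, 14.9, 15.3, 16.7 and 15.3 CPM in CLA glands at 108 h, against 10.3, 11.5, 10.8, 11.5 and 14.9 CPM in controls, so that control 5 alone reached the CLA glands.

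In 5 of the 8 groups the library with the highest Psmb8 was also the one with the highest interferon response, and in 3 of these 5 it stood well above the rest of its group in both. The mean of the 18 interferon response genes was 5.76 log2 CPM in CLA gland 3 at 132 h, against 3.80 to 4.15 in the other CLA glands and 3.36 to 3.74 in controls. It was 4.91 in control 5 at 108 h, where the other controls had 3.32 to 4.01 and CLA glands 4.06 to 4.45. In control 2 at 60 h it was 6.23, against 3.38 to 3.95 in the other controls and 3.03 to 3.62 in estrogen glands, and Psmb8 there was at 27.9 CPM and Psmb9 at 28.9 CPM. At 132 h 12 of the 18 interferon response genes rose under CLA and 1 fell, where 27.0% of all genes rose. At 108 h 2 of the 18 rose and none fell, where 24.9% of all genes rose. The part of the 18 interferon response genes in the immunoproteasome values was not tested.

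Within each library, the ratio of the immunoproteasome subunit to the subunit it replaces compares their messenger RNA without scaling for library depth. It does not give the amounts of the 2 assembled forms. Log2(RPKM/CPM) of Psmb8 averaged -0.496 in CLA glands at 108 h and -0.597 in controls, so ratios in RPKM and CPM can differ. The log2 ratio of Psmb8 to Psmb5 in RPKM was -1.97 ± 0.19 in CLA glands at 108 h and -1.45 ± 0.25 in controls (SD, n = 5 each), with every CLA gland below every control. At 132 h it was -1.96 ± 0.27 in CLA glands and -1.57 ± 0.15 in controls, where CLA gland 3, at -1.47, lay among the controls. Psmb9 over Psmb6 likewise stood at -3.34 ± 0.09 in CLA glands and -2.93 ± 0.18 in controls at 108 h, without overlap, and at -3.40 ± 0.31 and -3.02 ± 0.18 at 132 h, with overlap. The mean of Psmb10 over Psmb7 was higher in CLA glands instead. It was 0.35 ± 0.14 in CLA glands and 0.21 ± 0.19 in controls at 108 h, with overlap in RPKM and in CPM. At 132 h it was 0.50 ± 0.29 in CLA glands and 0.029 ± 0.17 in controls. In that last comparison the CLA glands lay above the controls in RPKM and overlapped with them in CPM. No test was run on these ratios.

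**Figure D4:**
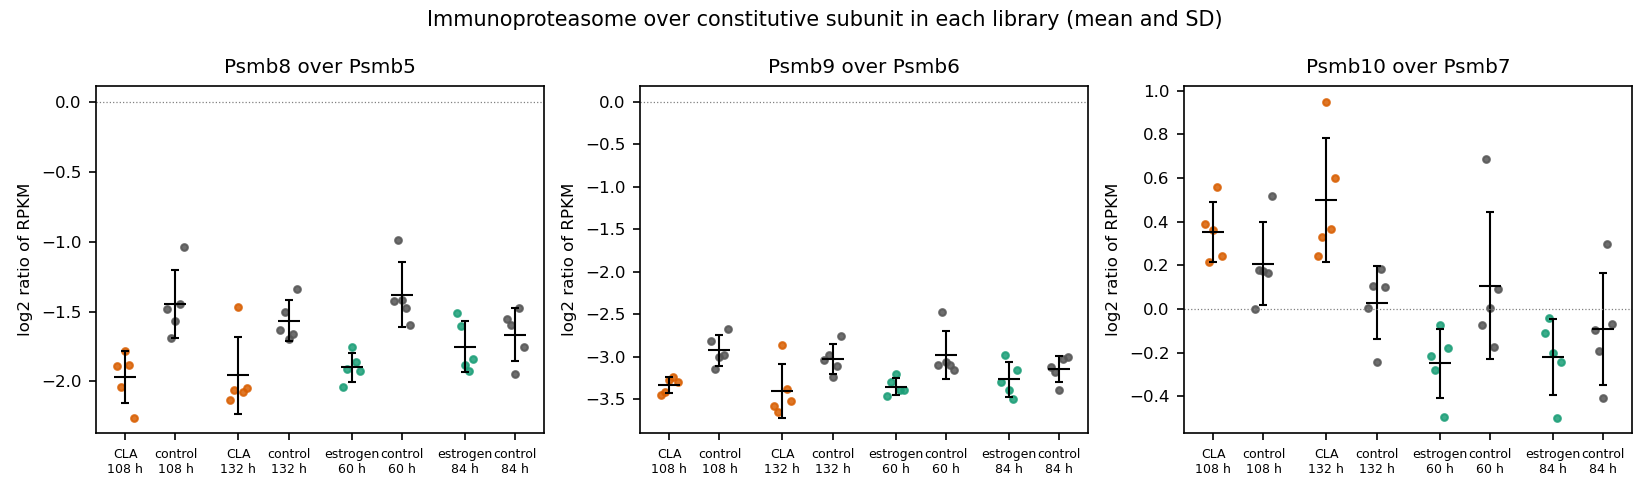
Log2 ratio of RPKM of each immunoproteasome subunit over the subunit it replaces, in each library, treated group left of its control, with mean and SD. CLA glands at 108 h average -1.97 for Psmb8 over Psmb5, against -1.45 in controls, while Psmb10 over Psmb7 is 0.35 in CLA glands and 0.21 in controls, with overlap.

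Among the activators, Psme1 and Psme2, which form the interferon-inducible cap of the core, rose at both times, by 0.25 ± 0.07 and 0.37 ± 0.06 at 108 h and by 0.22 ± 0.07 and 0.34 ± 0.08 at 132 h on the log2 scale. Psme2 had 42.2, 40.2, 42.6, 39.8 and 41.8 CPM in CLA glands at 108 h, against 32.7, 30.3, 31.9, 31.9 and 33.0 CPM in controls, with no overlap. Psme3, the nuclear activator, rose by 0.16 ± 0.06 at 108 h (edgeR adjusted p = 0.030) with overlapping groups. That call was lost with 5 of the 10 single libraries left out (CLA glands 1, 2 and 3 and controls 4 and 5, adjusted p between 0.059 and 0.097) and with RLE or upper-quartile scaling, DESeq2, no filter or only its own 2 groups in the fit. Psme4, the large single-chain activator, rose by 0.21 ± 0.05 at 108 h. At 132 h neither passed, at 0.063 ± 0.058 for Psme3 and 0.11 ± 0.05 for Psme4 (edgeR adjusted p = 0.066), though both passed in RPKM (limma), and Psme4 also without CLA gland 5 or control 5. Without the libraries high in skin and hair genes, Psme1 (0.13, edgeR adjusted p = 0.35) and Psme2 (0.26, edgeR adjusted p = 0.075) did not pass at 132 h, and Psme1 also missed there with upper-quartile scaling or only its own 2 groups in the fit.

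Psmf1 and Psmg1 gave changes near 0. Psmf1 (PI31), known as an inhibitor of the core in the test tube, had 30.3, 30.0, 32.1, 28.2 and 27.2 CPM in CLA glands at 108 h and 30.5, 26.9, 31.4, 30.3 and 29.6 CPM in controls. Its log2 fold change was -0.0095 ± 0.055 at 108 h and -0.039 ± 0.065 at 132 h. Psmg1, which pairs with Psmg2 to chaperone the alpha ring, had 19.9, 22.8, 19.8, 20.2 and 21.2 CPM in CLA glands at 108 h and 19.0, 21.5, 19.3, 20.8 and 21.9 CPM in controls, with log2 fold changes of 0.018 ± 0.057 and -0.077 ± 0.062. Neither passed. In RPKM both log2 changes were above 0 at 132 h, 0.14 for each with a pseudocount of 0.1, and that of Psmg1 passed (limma adjusted p = 0.047).

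The remaining chaperones were mixed. Psmg2 rose by 0.21 ± 0.06 at 108 h, a call lost with upper-quartile scaling (0.14, edgeR adjusted p = 0.060), and was at 0.040 ± 0.063 at 132 h, where it passed in RPKM alone. Psmg4, which pairs with Psmg3, rose by 0.32 ± 0.08 and 0.28 ± 0.08, and did not pass at 132 h without the libraries high in skin and hair genes (edgeR adjusted p = 0.066). Psmg3, with 0.76 to 2.06 CPM in the glands of that time, had a log2 fold change of 0.54 ± 0.23 at 108 h that did not pass (edgeR adjusted p = 0.062) but passed without control 3, CLA gland 4 or CLA gland 5. At 132 h Psmg3 stood at 0.33 ± 0.18, passing without CLA gland 1 (0.44, edgeR adjusted p = 0.041), and it passed in RPKM at both times. Of the chaperones of the base, Psmd10 (gankyrin) rose by 0.53 ± 0.07 and 0.51 ± 0.09, Psmd5 by 0.43 ± 0.05 and 0.30 ± 0.08, and Psmd9 by 0.18 ± 0.05 at 108 h, with 0.11 ± 0.05 at 132 h, which did not pass.

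Most of the genes known to work with the proteasome also rose under CLA. Of 15 tested partners that lie outside the set by symbol, 12 rose at 108 h with none lower, where 24.9% of all genes rose. At 132 h there were 10 higher and 2 lower, where 27.0% of all genes rose. The medians were 0.27 and 0.28. Pomp, the maturation factor of the core, had 107, 104, 102, 104 and 109 CPM in CLA glands at 108 h, against 62.3, 62.1, 62.9, 63.7 and 68.7 CPM in controls, a log2 fold change of 0.72 ± 0.05. Zfand2a, a stress-induced protein that associates with the proteasome, rose by 1.26 ± 0.07 and 1.26 ± 0.11, more than any member that passed. Shfm1, the small lid subunit Sem1, rose by 0.45 ± 0.05 and 0.52 ± 0.05, and Usp14, a deubiquitinase of the base, by 0.47 ± 0.05 and 0.36 ± 0.06. Ubqln2, a shuttle factor, rose by 0.27 ± 0.08 and 0.48 ± 0.07. Ubqln4, another shuttle factor, fell at 132 h (-0.31 ± 0.06).

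Among 10 tested genes of the NRF1 pathway and its ATPase Vcp, there were 6 higher and 2 lower at 108 h and 5 higher and 2 lower at 132 h. Those that fell were the same at both times: Nfe2l1 itself, by 0.21 ± 0.06 and 0.37 ± 0.07 on the log2 scale, and Ngly1, the enzyme that deglycosylates NRF1, by 0.31 ± 0.06 and 0.37 ± 0.05. Nfe2l2, the related factor NRF2, rose by 0.44 ± 0.08 and 0.59 ± 0.07, the partner Mafg by 0.56 ± 0.05 and 0.34 ± 0.06, Vcp by 0.33 ± 0.05 and 0.32 ± 0.05, and Nploc4, its cofactor, by 0.33 ± 0.06 and 0.25 ± 0.05. Messenger RNA levels do not show how much active factor was present.

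Genes of class I antigen processing changed in near the share of all genes, which was 47.9% at 108 h and 56.0% at 132 h. Of 13 genes of this list 5 rose at each time, while none was lower at 108 h and 3 fell at 132 h. The leading ones, Pdia3 (0.60 ± 0.08 and 0.76 ± 0.07), Canx (0.48 ± 0.07 and 0.59 ± 0.07) and Calr (0.58 ± 0.09 and 0.66 ± 0.09), are general chaperones of the endoplasmic reticulum, while Tap1, Tap2 and B2m did not pass at either time. Those that fell at 132 h were Erap1, Tapbpl and Nlrc5 (-0.21, -0.56 and -0.30). Of 10 heat shock genes 9 rose at 108 h and 7 at 132 h with none falling, and of 6 ubiquitin and ubiquitin-activating genes 3 rose at 108 h, with 2 rising and 1 falling at 132 h.

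Markers of other cell types differed between the same glands. Of 14 tested macrophage genes 11 rose at 108 h and 12 at 132 h, with none falling, and their mean was 6.53 to 7.14 log2 CPM in CLA glands and 4.77 to 5.31 in controls at 108 h, and 6.59 to 7.33 and 3.92 to 4.90 at 132 h. Of 12 adipocyte genes 10 fell at each time, with means of 9.18 to 9.71 in CLA glands and 10.0 to 10.4 in controls at 108 h, and 8.99 to 9.65 and 10.1 to 10.6 at 132 h. Of 6 endothelial genes 6 fell at 108 h and 5 at 132 h, of 11 luminal genes none passed at 108 h while at 132 h there was 1 higher and 1 lower, and lymphocyte genes passed in 2 of 12 (higher) and 2 of 11 (lower). No defining marker of the macrophage or adipocyte lists was at 0 in any group. Skin and hair genes fell in 12 of 13 and 15 of 15. Without the libraries high in them 42 of 47 members rose at 108 h and 26 at 132 h, with none falling. In those fits 3424 of 17798 and 3750 of 17514 genes rose, and the median log2 fold change over the members was 0.46 and 0.30. The part of the listed cell types in the proteasome values was not tested.

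**Figure D5:**
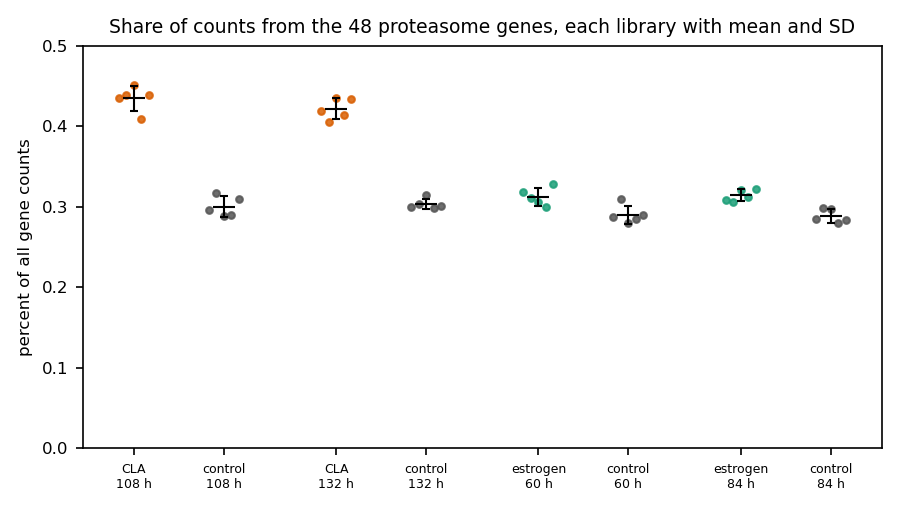
Share of all gene counts that came from the 48 members in each library (percent), treated group left of its control, with mean and SD. CLA glands lie between 0.405% and 0.452%, above all control glands of their times, which lie between 0.288% and 0.317%.

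As a share of all counts, the 48 members took 0.434% ± 0.016 in CLA glands and 0.300% ± 0.013 in controls at 108 h (SD, n = 5 each), and 0.421% ± 0.013 and 0.303% ± 0.0066 at 132 h. Estrogen glands had 0.312% ± 0.011 and their controls 0.290% ± 0.011 at 60 h, with overlap. At 84 h the estrogen glands had 0.314% ± 0.0074 and their controls 0.289% ± 0.0086, and the lowest estrogen gland (0.306%) was above the highest control (0.299%).

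Under estrogen few members passed. At 60 h 5 of 47 rose and none fell, where 4.07% of all genes rose, 2.42% fell and 6.49% changed in all, and the median log2 fold change was 0.11 over the members against -0.0020 over all genes. These were Psmc3, Psmc4, Psmd4, Psmd13 and Psmd9, the last a base chaperone and the others subunits of the regulatory particle. Psmc3 is named here after its values were seen. The estrogen mice carry animal numbers from a run that holds no control, so that run and estrogen cannot be told apart. Psmd4 had 129, 134, 123, 125 and 124 CPM in estrogen glands, against 105, 114, 112, 111 and 109 CPM in controls, a log2 fold change of 0.21 ± 0.04 (edgeR adjusted p = 0.012) with no overlap. It kept its call with every single library left out and in every other setting run. Psmc4 had 85.6, 91.0, 77.4, 84.6 and 86.3 CPM in estrogen glands and 67.7, 74.9, 65.9, 77.7 and 69.8 CPM in controls, a log2 fold change of 0.26 ± 0.06 (edgeR adjusted p = 0.025) with overlap.

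The other 3 were Psmd13 at 0.20 ± 0.05 (edgeR adjusted p = 0.018), Psmc3 at 0.17 ± 0.05 (0.035) and Psmd9 at 0.18 ± 0.05 (0.046). All 5 estrogen glands lay above all 5 controls for 2 members, Psmd4 and Psmd13, where 3.52% of all genes did so. The count at 60 h depended on single libraries: it was 1 without estrogen gland 5, which is the one high in skin and hair genes, 2 without estrogen gland 2 or control 3, 3 without estrogen gland 1 or control 1 or 5, and 8 without estrogen gland 3. Psmc4 lost its call without estrogen gland 1, 2 or 5 or control 3, Psmd13 without estrogen gland 5, Psmc3 in 7 of the 10 cases (all but estrogen gland 3, estrogen gland 4 and control 4, adjusted p between 0.053 and 0.083) and Psmd9 in 9 of the 10. At an unadjusted p under 0.05 there were 23 of the 47 tested members, against 23.0% of all genes. DESeq2 called 10 members and upper-quartile scaling gave 14. Luminal epithelium genes rose in 10 of 11 in these glands, with means of 3.48 to 4.70 log2 CPM in estrogen glands and -0.084 to 3.04 in controls, and their part in the proteasome values was not tested. Of the listed partners and regulators, Pomp rose by 0.22 ± 0.05 (edgeR adjusted p = 0.025), a call lost with 6 of the 10 libraries left out in turn, and Nfe2l2 fell by 0.44 ± 0.08 (edgeR adjusted p = 0.0044). No gene of the antigen processing or heat shock lists passed at 60 h, and 1 of 18 interferon response genes and 1 of 14 macrophage genes fell.

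The immunoproteasome subunits went the other way at 60 h without passing. Psmb8 had 14.1, 15.3, 17.4, 17.0 and 16.5 CPM in estrogen glands, against 16.6, 27.9, 17.6, 17.8 and 16.7 CPM in controls, a log2 fold change of -0.26 ± 0.13 (edgeR adjusted p = 0.22). Psmb9 was at -0.27 ± 0.12 (0.16) and Psmb10 at -0.20 ± 0.12 (0.35). Without control 2, the library with the high interferon response, the 3 changes were -0.093, -0.12 and -0.056. The log2 ratio of Psmb8 to Psmb5 in RPKM was -1.90 ± 0.10 in estrogen glands and -1.38 ± 0.23 in controls, with no overlap in RPKM and overlap in CPM. Psmb9 over Psmb6 was -3.35 ± 0.10 in estrogen glands and -2.98 ± 0.28 in controls, with no overlap.

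At 84 h no member passed in the edgeR test, where 3.45% of all genes rose, 1.97% fell and 5.42% changed in all. An unadjusted p under 0.05 was seen for 3 of the 47 members, against 21.4% of all genes, and DESeq2 called 0 members. Without control 3 there was 1 call, Psmd13 (0.20, edgeR adjusted p = 0.024), and in RPKM there were 3 to 4. No gene of the partner, NRF1, ubiquitin, antigen processing, interferon response, macrophage or adipocyte lists passed there, while 1 of 10 heat shock genes and 6 of 11 luminal genes rose. The median log2 fold change was 0.073 over the members and -0.010 over all genes, and 42 of 47 were above 0, against 47.6% of all genes. Psmb5 had 19.1, 19.9, 22.0, 21.7 and 21.4 CPM in estrogen glands and 17.4, 19.0, 20.3, 17.95 and 18.2 CPM in controls, a log2 fold change of 0.17 ± 0.09. No member had all 5 estrogen glands above all 5 controls in CPM, against 4.68% of all genes, and none had all below, against 3.15%. No member differed in its estrogen change between 84 h and 60 h (edgeR, 0.0056% of all genes). For that difference 1 of the 47 members had an unadjusted p under 0.05, against 6.5% of all genes.

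In the test of the difference itself, the change under CLA exceeded the change under estrogen for most members at the earlier times. At the later times it did so for 22 of 47. For CLA at 108 h less estrogen at 60 h, 38 of 47 members passed in the direction of the larger CLA change and none in the other, where 17.2% of all genes passed in that direction, with a median of 0.33 over the members and 0.0023 over all genes. For CLA at 132 h less estrogen at 84 h, 22 passed and none in the other direction, where 19.1% of all genes passed, with medians of 0.25 and -0.027. The 2 treatments were sampled at different times, so treatment and time go together here. The estrogen mice also carry animal numbers from a run with no control and no CLA gland, so run goes with treatment as well. At the earlier times the differences with the smallest p were those of Psmb6 (0.63 ± 0.06, edgeR adjusted p = 4.89e-07), Psmb4 (0.56 ± 0.07), Psma7 (0.52 ± 0.07), Psma4 (0.43 ± 0.06) and Psma2 (0.48 ± 0.07). At the later times they were those of Psma5 (0.60 ± 0.08, edgeR adjusted p = 6.22e-06), Psma7 (0.48 ± 0.07), Psma1 (0.40 ± 0.07), Psmb6 (0.62 ± 0.11) and Psmb4 (0.44 ± 0.09). All of these are alpha or beta subunits of the core. Without the libraries high in skin and hair genes 31 of 47 members passed at the earlier times and 7 at the later. In those fits 2160 of 17798 and 1899 of 17514 genes passed in the direction of the larger CLA change. The 22 that passed at the later times had all passed at the earlier ones, and of the immunoproteasome subunits Psmb8, Psmb9 and Psmb10 passed at the earlier times (0.51 ± 0.18, 0.59 ± 0.16 and 0.60 ± 0.17) and Psmb10 at the later (0.50 ± 0.17). Without control 2 at 60 h, the library with the high interferon response, the earlier differences were 0.34, 0.44 and 0.45, and that of Psmb8 did not pass (edgeR adjusted p = 0.052). The Psmb8 call was lost with 9 of the 20 libraries left out in turn (at 60 h control 2 and estrogen glands 1 and 2, at 108 h controls 1 to 4 and CLA glands 3 and 4, adjusted p between 0.050 and 0.071), with upper-quartile scaling and without the libraries high in skin and hair genes. The later Psmb10 call was lost without CLA gland 3 (0.40, edgeR adjusted p = 0.051), with upper-quartile scaling (0.42, edgeR adjusted p = 0.051) and without the libraries high in skin and hair genes (0.38, edgeR adjusted p = 0.31), and Psmb9 passed at the later times without CLA gland 2 (0.50, edgeR adjusted p = 0.037).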

How the data were processed

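RNA of 40 mammary glands in 8 groups was sequenced from stranded poly-A libraries, per the labels' protocols. The authors deposited whole-number read counts per gene and RPKM values (reads per kilobase of transcript, scaled to library depth), each in 2 tables, 1 for 60 h and 108 h and 1 for 84 h and 132 h. The build was GRCm38, per the submitters' processing notes, while the sources used here name neither the counting tool nor its strand setting.

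Counts of each table were tested with edgeR 4.0.16 (TMM scaling, filterByExpr with a minimum count of 10 and total of 15, robust quasi-likelihood F test, Benjamini-Hochberg over all genes, threshold 0.05), the 4 groups of a table sharing the spread. Differences between times and the controls over time were tested in 1 fit of all 40 libraries. The SE is the log2 fold change over the root of F. CPM values come from that fit's scaling. RPKM, as deposited, gave levels and within-library ratios, and limma 3.58.1 tested log2(RPKM + 0.1) and log2(RPKM + 1) as alternatives beside DESeq2 1.42.0, other scalings and filters, and libraries left out (R 4.3.3). The scripts were checked on simulated data. Fold changes in RPKM are on the log2(value + pseudocount) scale.

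Members and gene lists were chosen with earlier results of these data known. Genes were named by a rule: the member with the smallest p of each class in each treatment comparison, the 5 smallest p of each difference between treatments, and the leading genes of the partner, NRF1 and antigen processing lists. The active-site and immunoproteasome subunits, the activators, Psmf1, the core chaperones, Psmd4 and Psmd14 were always named. Others were named where a count of 5 or fewer fell on them, after their values were seen. Promoters come from RefSeq (GRCm38.p6), and 40 of 48 members matched. Gene positions are from GENCODE M21. Library totals of 18183713 to 40026800 counts set the precision, and counting error alone does not cover the spread between mice.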

Additional observations from a re-analysis of the deposited data

Results flagged for a closer look

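Of 168 groups of 5 libraries checked, 15 held 1 library whose gap to the nearest other library was over 0.71 of the group's range, where chance gives about 1 in 20 groups. Of these, 7 concern the immunoproteasome. In control 2 at 60 h Psmb8 was at 27.9 CPM (next highest 17.8), Psmb9 at 28.9 CPM (19.3), and the log2 RPKM ratio of Psmb9 to Psmb6 at -2.48 (-3.07). In control 5 at 108 h Psmb8 was at 23.1 CPM (17.9) and Psmb10 at 14.9 CPM (11.5). In CLA gland 3 at 132 h the log2 RPKM ratio of Psmb8 to Psmb5 was -1.47 (-2.04). These 3 libraries had the highest interferon response means of their groups. In estrogen gland 1 at 60 h Psmb9 was low, at 15.1 CPM (next lowest 17.2).

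A low value stood apart for Psmb6 in control 3 at 108 h (74.8 CPM, next lowest 78.6), Psme2 in CLA gland 2 at 132 h (35.3 CPM, next 43.5) and Psmf1 in estrogen gland 2 at 84 h (28.7 CPM, next 31.7). Psmg2 was high in control 2 at 132 h (20.3 CPM, next 17.7). Psmg3 was low in CLA gland 1 at 132 h (1.03 CPM, next 1.55), high in estrogen gland 2 at 84 h (1.68 CPM, next 1.14) and low in control 2 at 84 h (0.906 CPM, next 1.14). The share of counts taken by the members was high in control 3 at 132 h (0.315%, next 0.303%).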

How the results depend on the processing

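Under CLA the count of members that rose stayed within 1.5 times its value in every alternative run: upper-quartile scaling gave 38 at 108 h and 35 at 132 h, RPKM gave 44 and 46, a term for the run of animal numbers gave 42 and 37, and with 1 library left out the counts ran between 40 and 43 and between 36 and 39. Without the libraries high in skin and hair genes the counts were 42 at 108 h and 26 at 132 h, the lowest seen at 132 h. Upper-quartile scaling moved the median of all genes to -0.077 and -0.079 at the 2 times, and log2(RPKM + 0.1) moved it to 0.115 at 132 h. Psmg1 at 132 h changed sign in RPKM (0.14 and 0.13 against -0.077). Under estrogen the count at 60 h was 14 with upper-quartile scaling, 10 with DESeq2, 8 in log2(RPKM + 0.1), 3 with no filter, 3 with only its own groups, 1 without the libraries high in skin and hair genes, and 1 to 8 with 1 library left out. At 84 h it was 4 and 3 in RPKM and 0 to 1 with 1 library left out. For CLA less estrogen, the count at the later times was 13 with upper-quartile scaling and 37 and 38 in RPKM. It was 7 without the libraries high in skin and hair genes, where 1899 of 17514 genes passed in the same direction. With 1 library left out it ran from 18 to 28, and at the earlier times from 33 to 39. The 2 differences over time gave 0 to 0 with 1 library left out. The controls over time gave 1 with no filter, 1 and 1 in RPKM, and 2 to 3 with 1 library left out, an alternative chosen after seeing the data. With only the bases before the start, the antioxidant response element core stood in 40.0% of the members and 38.7% of all genes and the interferon response element core in 7.5% and 8.18%, so that the larger shares of the whole window were not seen there. The cause of these shifts was not tested. The run of animal numbers could not be used for estrogen, whose mice fall in a run with no control. No paired analysis was possible because each animal number occurs once and the replicate numbers only name libraries.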
